A study of Mus musculus with 18 samples.

Results

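Mcpt4, Tpsb2, Cma1, Cpa3, Kit, Ms4a2 and Hdc are genes by which mast cells are recognised in tissue RNA. These 7 genes of the 33641 in the deposited table were picked by symbol, and the TPM of all transcripts carrying a symbol were added up (TPM is a transcript's length-corrected share of its library, on a fixed scale). They were followed through quadriceps and white fat of 9 male wild-type DBA/2J mice on a high-fat diet. The labels give an age of about 20 weeks, which their protocol ties to the injections, after 12 weeks of the diet. The diet went on through 12 further weeks of treatment. The 3 regimens, with 3 mice each, were compared: daily vehicle, prednisone once a week, and prednisone once a day, the drug being a glucocorticoid injected into the peritoneum at 1 mg/kg in PBS from a DMSO stock. Each mouse gave both tissues 24 hours after its last injection, so there are 18 libraries. No lean or untreated mice were among them, and every group shared the diet.

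Mast cells are long-lived tissue leukocytes that sit beside vessels, nerves and in connective tissue. Their granules hold proteases and histamine bound to the proteoglycan serglycin, they need the growth factor receptor KIT to survive, and they degranulate when IgE on their Fc receptor is cross-linked. Glucocorticoids are known to restrain mast cells and are given in allergic disease.

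Positions are from GENCODE M21 on the GRCm38 assembly. Mcpt4, a chymase of connective tissue mast cells, spans chr14:56059629-56062313 on the minus strand, and Cma1, a second chymase family member, spans chr14:55941451-55944675 on the same strand. Tpsb2, a tryptase, spans chr17:25366305-25369098 on the plus strand. Cpa3, the mast cell carboxypeptidase, spans chr3:20215620-20242181 on the minus strand. Kit, the receptor for stem cell factor, spans chr5:75574916-75656722 on the plus strand, and Hdc, which makes histamine from histidine, spans chr2:126593667-126619299 on the minus strand. Ms4a2, the beta chain of the IgE receptor, spans chr19:11615523-11623719 on the minus strand.

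Promoters of 6 of the 7 genes were found in the RefSeq table (GRCm38.p6). Tpsb2 has no entry there. Those of Mcpt4, Cma1, Cpa3 and Ms4a2, granule proteases and an IgE receptor chain, are shown because they hold GATA words, which GATA2, a factor that drives mast cell genes, binds. The 150 reference bases before the annotated start are given 5′ to 3′ on the gene's strand, with GATA words in capitals (AGATAA or TGATAA, or either of them with a final G in place of the final A, on both strands). They lie at chr14:56062311-56062460 for Mcpt4, chr14:55944676-55944825 for Cma1, chr3:20242182-20242331 for Cpa3 and chr19:11623720-11623869 for Ms4a2, all on the minus strand.
Mcpt4: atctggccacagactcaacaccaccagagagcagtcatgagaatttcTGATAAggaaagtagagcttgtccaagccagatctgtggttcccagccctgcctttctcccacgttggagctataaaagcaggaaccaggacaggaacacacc
Cma1: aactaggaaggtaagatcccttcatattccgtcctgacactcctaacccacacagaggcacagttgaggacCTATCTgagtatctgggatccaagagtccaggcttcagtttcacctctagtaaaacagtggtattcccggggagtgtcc
Cpa3: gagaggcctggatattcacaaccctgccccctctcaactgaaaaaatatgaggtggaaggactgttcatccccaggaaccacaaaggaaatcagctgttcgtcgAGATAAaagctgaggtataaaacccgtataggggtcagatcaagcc
Ms4a2: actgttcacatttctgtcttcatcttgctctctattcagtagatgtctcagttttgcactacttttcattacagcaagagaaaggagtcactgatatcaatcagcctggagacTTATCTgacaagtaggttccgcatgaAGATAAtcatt
Within the 250 bases before the start, Mcpt4, Cma1, Cpa3 and Hdc each held 1 GATA word, Ms4a2 held 3 and Kit held 0. The words in Mcpt4, Cma1 and Cpa3 begin 103, 79 and 46 bases before the start. Of all 32851 promoter windows of that length, 26.54% held such a word. The MITF words CACGTG and CATGTG were in no window of these genes and in 17.62% of all windows. The glucocorticoid receptor word searched for was in none of these genes and in 10 windows in all. Other forms of that receptor's site were not counted. A word is a description of the letters, and the bases are those of the reference assembly, not of the DBA/2J strain.

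The tissue labels held: the muscle marker Ckm reached 15453 to 19127 TPM in muscle libraries, and the adipocyte gene Adipoq reached 2877 to 3757 TPM in adipose libraries. In 3 adipose libraries (weekly 2, weekly 3 and daily 2) a list of 5 skeletal muscle genes summed to 635 to 1015 TPM, against 108 to 178 TPM in the other 6. The third library of a group took the middle of the 3 values for 42.3% to 55.8% of genes with a mean of at least 10 TPM, depending on the group, where equal standing would give 33.3%. TPM keeps no depth, so the number of reads behind each value is unknown.

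In vehicle mice the proteases stood above the receptor and histamine genes in both tissues. The order in muscle was Cma1 at 12.7 ± 2.23 TPM (SD, n = 3), Mcpt4 at 10.6 ± 1.20, Tpsb2 at 9.51 ± 0.540 and Cpa3 at 4.35 ± 0.349. Kit followed at 0.875 ± 0.307 TPM, then Ms4a2 at 0.210 ± 0.0546 and Hdc at 0.210 ± 0.00333. Cma1, Mcpt4 and Tpsb2 overlapped between neighbours in that order, as did Ms4a2 and Hdc, while Cpa3 and Kit each stood apart from the genes beside them. In adipose tissue Cma1 reached 23.3 ± 7.48 TPM, Mcpt4 19.6 ± 5.65, Tpsb2 18.5 ± 4.001 and Cpa3 10.1 ± 3.83, with Kit at 4.67 ± 1.22, Hdc at 1.32 ± 0.0748 and Ms4a2 at 0.376 ± 0.0808. The same 3 proteases overlapped between neighbours there.

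**Figure D1:**
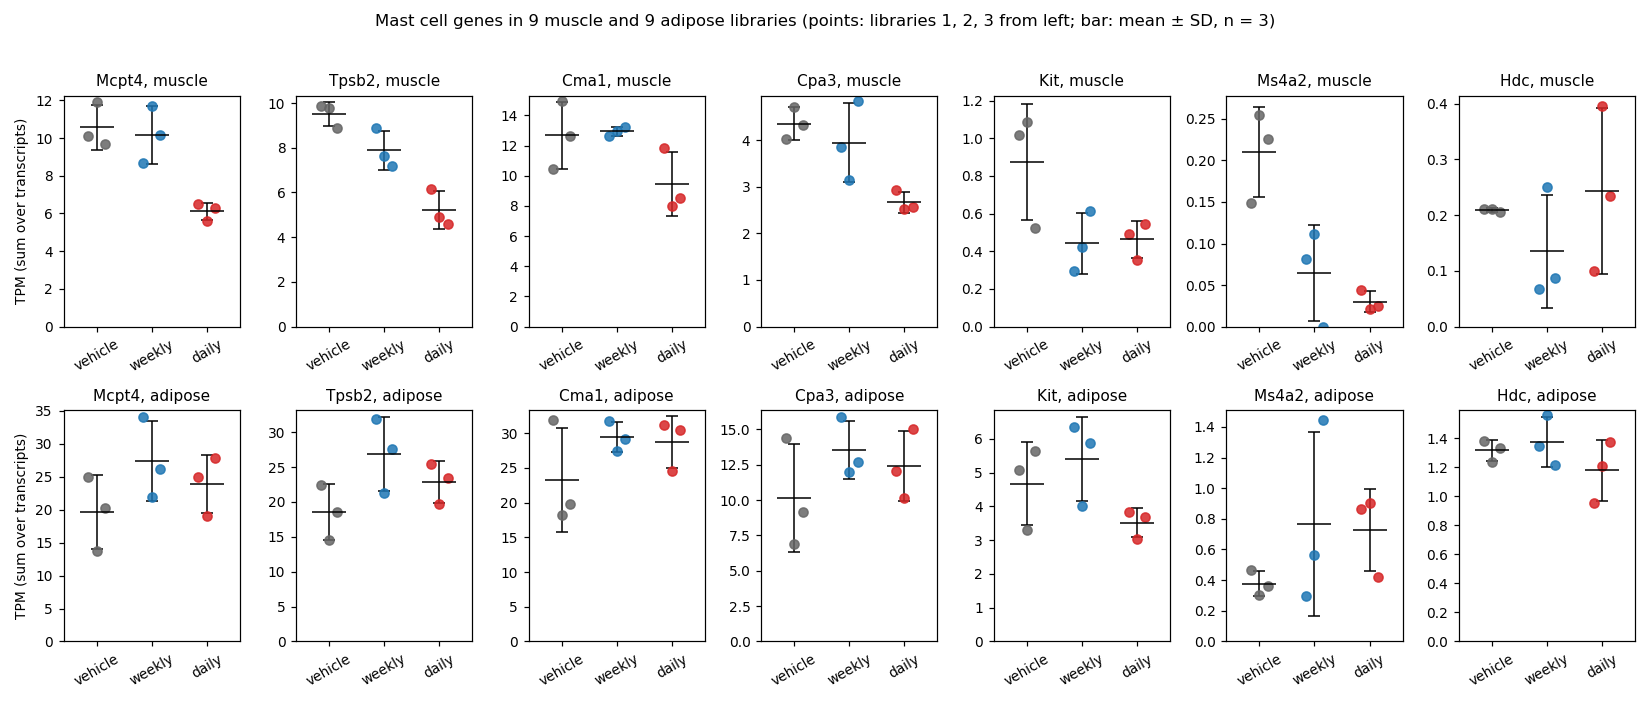
Each panel plots TPM (y axis, from 0) of 1 mast cell gene in 1 tissue for vehicle, weekly and daily mice, with points for the 3 libraries of a group and a bar for mean ± SD (n = 3). In muscle the 3 daily libraries of Mcpt4 lie between 5.62 and 6.48 TPM, below all vehicle and weekly libraries, while in adipose tissue the 3 groups overlap.

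Mast cell protease transcripts fell in muscle of mice on daily prednisone. Mcpt4 measured 10.1, 11.9 and 9.67 TPM in vehicle muscle and 6.48, 5.62 and 6.28 TPM in daily muscle. The highest daily library lay below the lowest vehicle library. Mcpt4 fell by 0.70 ± 0.11 on the log2(TPM + 1) scale (SE; limma, Benjamini-Hochberg adjusted p = 0.00668), to 0.617 of vehicle on that scale.

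Tpsb2 measured 9.87, 9.77 and 8.89 TPM in vehicle muscle and 6.16, 4.90 and 4.59 TPM under daily prednisone, and the groups did not overlap. It fell by 0.76 ± 0.11 (limma, adjusted p = 0.00401), the largest change of these genes. Cpa3 measured 4.02, 4.72 and 4.31 TPM in vehicle and 2.92, 2.52 and 2.56 TPM in daily muscle, again without overlap. It fell by 0.55 ± 0.12 (limma, adjusted p = 0.0214).

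Cma1 measured 10.5, 14.9 and 12.7 TPM in vehicle muscle and 11.9, 7.98 and 8.53 TPM in daily muscle. The first daily library sat among the vehicle libraries, and the difference of -0.39 ± 0.15 did not pass the test (limma, adjusted p = 0.111). Without that library the difference was -0.55 and passed (limma, adjusted p = 0.0245).

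Of the 4 genes above the filter of 1 TPM in 3 libraries, 3 were called lower, where 11.8% of all 12246 tested genes were called lower and 13.7% were called in either direction. The same 3 did not overlap between groups, a pattern that 27.8% of all tested genes showed in this direction. The median difference of the 4 genes was -0.62, against -0.09 over all tested genes. Kit, Ms4a2 and Hdc were below the filter in muscle.

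Mcpt4 and Tpsb2 kept their calls under every setting tried except 1, the removal of the third library of each group, where the adjusted p was 0.142 and 0.121 and only 7 of all genes were called. Cpa3 lost its call without vehicle 2 (adjusted p = 0.0715), vehicle 3 (0.0558), daily 2 (0.0554) or daily 3 (0.084), and also under trimmed mean of M-values (TMM) scaling (0.0515), with no filter (0.0523) and without the third libraries (0.188), all by limma.

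**Figure D2:**
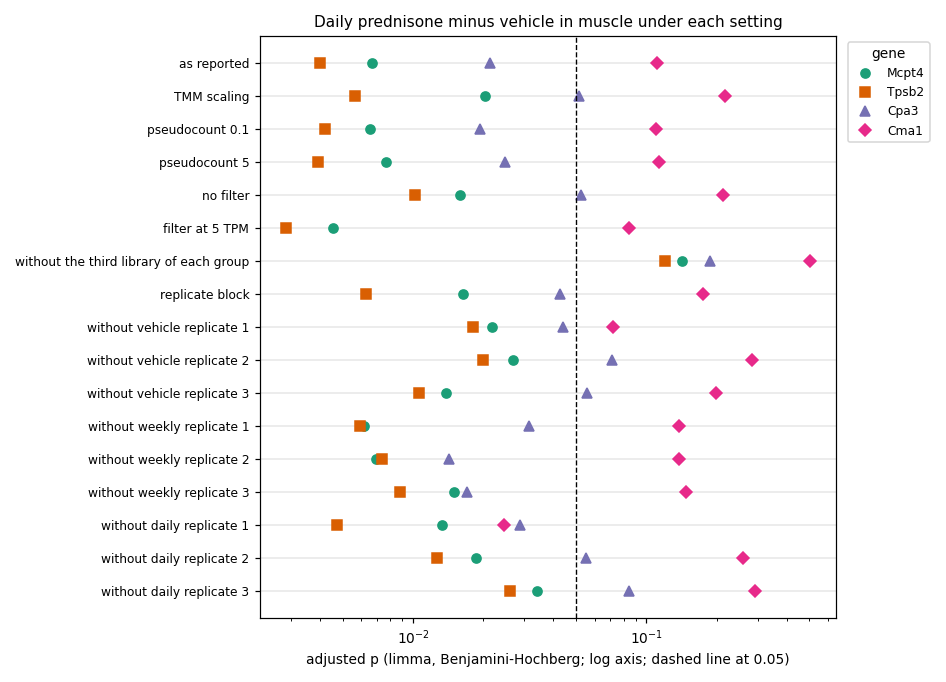
Adjusted p of daily prednisone minus vehicle in muscle (x axis, log scale) for Mcpt4, Tpsb2, Cpa3 and Cma1 under each setting (y axis), with a dashed line at 0.05. Tpsb2 and Mcpt4 stay left of the line except without the third libraries, Cpa3 crosses it in 7 settings, and Cma1 is left of it without daily replicate 1.

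The receptor and histamine genes were near the bottom of the muscle libraries. Ms4a2 measured 0.149, 0.255 and 0.226 TPM in vehicle muscle and 0.0442, 0.0213 and 0.0247 TPM in daily muscle, without overlap. In a fit with no filter on low values its difference was -0.23 ± 0.05 (limma, adjusted p = 0.0319). Kit measured 1.02, 1.09 and 0.523 TPM in vehicle muscle and 0.490, 0.355 and 0.547 TPM in daily muscle, and the third vehicle library lay inside the daily range. Hdc measured 0.211, 0.212 and 0.206 TPM against 0.0997, 0.396 and 0.234 TPM, so its daily libraries spread around vehicle. Without a filter neither gene passed (limma, adjusted p = 0.212 for Kit and 0.905 for Hdc).

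In bulk RNA, fewer mast cells and less of these transcripts in each mast cell cannot be told apart. Other cell types moved as well. The macrophage list summed to 126 to 184 TPM in vehicle muscle and 261 to 378 TPM in daily muscle. Of its 6 gene differences 4 were above 0 and 2 below. Higher calls went to 2 of the 6, and to 1.91% of all tested genes, and none of the 6 was called lower. The 2 were Lyz2, a lysozyme (1.16 ± 0.14, limma adjusted p = 0.00291), and Cd68, a lysosomal protein (1.09 ± 0.25, limma adjusted p = 0.0212). Ptprc, the pan-leukocyte gene CD45, measured 0.982 to 1.57 TPM in vehicle, near the filter of 1 TPM, and 1.70 to 3.42 TPM in daily muscle. Its difference of 0.57 was opposite in sign to the proteases and was not called. The adipocyte list ranged from 1152 to 1556 TPM in vehicle and from 623 to 1598 TPM in daily muscle. Its highest sum was in daily 1, the daily library also highest in Mcpt4, Tpsb2, Cma1 and Cpa3. Among daily libraries daily 1 was highest too in Ptprc and in the macrophage, endothelial, stromal and mesothelial sums. All 5 adipocyte gene differences were nevertheless below 0, from -0.79 to -0.40 with a median of -0.55, and none was called. The median over all tested genes was -0.09. The endothelial list summed to 75.8 to 81.5 TPM in vehicle and 66.0 to 73.9 TPM in daily muscle. All 5 of its gene differences were below 0, with a median of -0.17, and none was called. The stromal list summed to 464 to 600 TPM in vehicle and 561 to 785 TPM in daily muscle, and 1 of its 5 genes, the collagen Col3a1, rose (0.86 ± 0.19, limma adjusted p = 0.0202). The mesothelial list summed to 1.07 to 1.58 and 2.03 to 4.43 TPM, and its 1 tested gene, Msln, rose (0.91 ± 0.20, limma adjusted p = 0.0178). Of 5 skeletal muscle genes, the myosin light chain gene Mylpf rose by 0.33 ± 0.06 (limma, adjusted p = 0.0084) and the creatine kinase gene Ckm fell by 0.21 ± 0.05 (0.0228). The part of these cells in the protease differences was not tested. Basophils share several of these genes. Their 5 markers summed to 6.27 to 6.94 TPM in vehicle and 6.16 to 7.71 TPM in daily muscle, with none called. Most of that was Il3ra, a cytokine receptor chain also found on other cells, at 5.48 to 7.51 TPM over all muscle libraries, while the basophil proteases Mcpt8 and Prss34 reached at most 0.0719 and 0.0517 TPM.

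In mice on weekly prednisone the muscle proteases lay close to vehicle. Mcpt4 measured 8.65, 11.7 and 10.2 TPM in weekly muscle, and Cma1 12.7, 12.9 and 13.2 TPM. Cpa3 measured 3.85, 3.15 and 4.83 TPM. All 3 genes overlapped with vehicle, with differences of -0.06 ± 0.11, 0.04 ± 0.15 and -0.13 ± 0.12.

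Tpsb2 measured 8.87, 7.61 and 7.21 TPM, just below the lowest vehicle library (as did 19.3% of all tested genes), and its difference of -0.24 ± 0.11 did not pass (limma, adjusted p = 0.324). None of the 4 tested genes was called and none had an unadjusted p under 0.05, where 0.049% of all tested genes were called and 15.4% had an unadjusted p under 0.05. Under TMM scaling 9 genes in all were called and again none of these 4. Of the genes below the filter, Ms4a2 measured 0.0809, 0.111 and 0 TPM. As a sum it lay below vehicle, while its form Ms4a2-204 overlapped with vehicle. Kit measured 0.294, 0.421 and 0.614 TPM, and Hdc measured 0.067, 0.251 and 0.0869 TPM. Kit and Hdc overlapped with vehicle.

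Compared directly in muscle, weekly libraries lay above daily libraries for all 4 tested proteases without overlap, which 14.7% of all tested genes showed in that direction. Mcpt4 was higher by 0.64 ± 0.11 (limma, adjusted p = 0.0285) and Tpsb2 by 0.52 ± 0.11 (limma, adjusted p = 0.0499). Cma1 (0.43 ± 0.15, limma adjusted p = 0.175) and Cpa3 (0.42 ± 0.12, limma adjusted p = 0.127) did not pass. Thus 2 of 4 were called higher, where 0.915% of all tested genes were called higher and 1.77% in either direction. The median of the 4 was 0.48, against 0.03 over all genes. This comparison shares its daily libraries with the one above.

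These calls depended on single libraries. Mcpt4 was no longer called without weekly 2 (limma, adjusted p = 0.0756), weekly 3 (0.104), daily 1 (0.0615), daily 2 (0.0593) or daily 3 (0.138). Tpsb2 lost its call when any library other than daily 1 was left out (limma, adjusted p from 0.0709 to 0.206) and had 0.0321 without daily 1. Neither was called without the third library of each group (limma, adjusted p = 0.587 for Mcpt4 and 0.608 for Tpsb2).

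**Figure D3:**
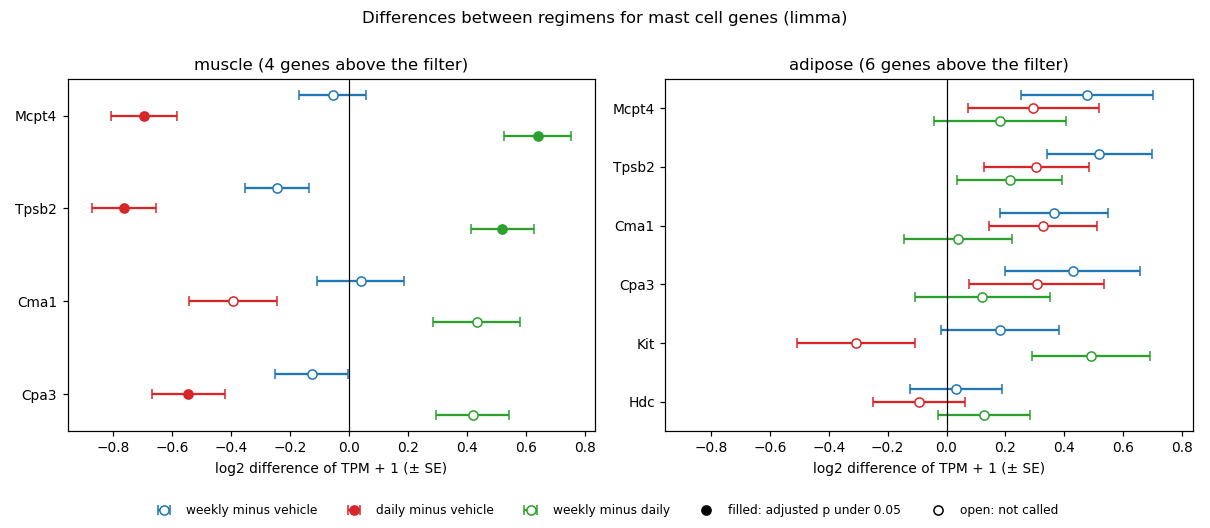
Log2 difference of TPM + 1 (x axis, ± SE) of each gene above the filter (y axis) in muscle and in adipose tissue, for weekly minus vehicle, daily minus vehicle and weekly minus daily. Filled points passed an adjusted p of 0.05: 3 genes in muscle daily minus vehicle, 2 in muscle weekly minus daily and none in adipose tissue.

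In adipose tissue the proteases had higher means under both regimens than under vehicle, but no difference passed the test. Mcpt4 measured 24.9, 13.7 and 20.3 TPM in vehicle, 34.0, 21.98 and 26.2 TPM in weekly and 24.9, 19.1 and 27.8 TPM in daily adipose tissue. The first vehicle library reached the treated range, and the groups overlapped. The differences were 0.48 ± 0.22 for weekly (limma, adjusted p = 0.177) and 0.29 ± 0.22 for daily (0.728).

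Tpsb2 measured 22.5, 14.5 and 18.5 TPM in vehicle, 31.8, 21.2 and 27.6 TPM in weekly and 25.5, 19.7 and 23.4 TPM in daily adipose tissue. It came closest to the threshold, with a weekly difference of 0.52 ± 0.18 (limma, adjusted p = 0.0904) and a daily difference of 0.30 ± 0.18 (0.644). Without weekly 2, one of the libraries with skeletal muscle transcripts, the weekly difference was 0.67 and passed (limma, adjusted p = 0.0478). Without all 3 of those libraries, which leaves 1 weekly library assumed to vary like the other groups, it was 0.77 and did not pass (0.0541).

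Cma1 measured 31.9, 18.2 and 19.8 TPM in vehicle, 31.7, 27.4 and 29.1 TPM in weekly and 31.2, 24.5 and 30.5 TPM in daily adipose tissue. Again the first vehicle library was as high as the treated ones. The weekly difference was 0.37 ± 0.18 (limma, adjusted p = 0.203), and without vehicle 1 it was 0.61 and passed (0.0397). Cpa3 measured 14.4, 6.90 and 9.15 TPM in vehicle, 15.9, 12.0 and 12.7 TPM in weekly and 12.1, 10.1 and 15.02 TPM in daily tissue, with a weekly difference of 0.43 ± 0.23 (limma, adjusted p = 0.229).

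Kit measured 5.08, 3.29 and 5.63 TPM in vehicle, 6.35, 4.002 and 5.88 TPM in weekly and 3.83, 3.03 and 3.69 TPM in daily adipose tissue. Every weekly library exceeded every daily library, as in 22.5% of all tested genes, and the difference of 0.49 ± 0.20 did not pass (limma, adjusted p = 0.285). Unlike the proteases, Kit was lower under daily prednisone than under vehicle, by -0.31 ± 0.20 (limma, adjusted p = 0.679). Hdc measured 1.38, 1.24 and 1.33 TPM, then 1.35, 1.56 and 1.21 TPM, then 0.954, 1.21 and 1.37 TPM, with overlap throughout. Ms4a2, below the filter, measured 0.464, 0.306 and 0.359 TPM in vehicle, 0.297, 0.564 and 1.44 TPM in weekly and 0.861, 0.907 and 0.422 TPM in daily adipose tissue.

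Over the 6 genes tested in adipose tissue, all 6 weekly differences were above 0 with a median of 0.40, against 0.13 over all genes, and none was called where 7.43% of all tested genes were. One of the 6, Tpsb2, had an unadjusted p under 0.05 (limma), as did 30.8% of all tested genes. For daily against vehicle 4 were above 0 and 2 below, none was called and none had an unadjusted p under 0.05, with 0.00707% of all tested genes called and 9.22% under that unadjusted p. For weekly against daily all 6 were above 0, none was called and Kit alone had an unadjusted p under 0.05, with 0.311% of all tested genes called and 15.8% under that unadjusted p. None of the 6 was called in these 3 comparisons without the 3 libraries with skeletal muscle transcripts, without the third library of each group or under TMM scaling, and TMM scaling moved the median of all genes for weekly against vehicle from 0.13 to 0.00.

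Markers of several other cells differed in weekly adipose tissue as well. The macrophage list summed to 1221 to 1562 TPM in vehicle and 1696 to 1896 TPM in weekly tissue, and 3 of its 6 genes (Cd163, Lyz2 and Mrc1) were called higher. The mesothelial list summed to 46.2 to 73.1 and 69.9 to 125 TPM, with Krt19 and Wt1 of its 5 genes called higher. The neutrophil list was lower, at 106 to 134 TPM in vehicle and 63.8 to 71.2 TPM in weekly tissue, and S100a8 was called lower. The nerve list (22.7 to 28.6 and 15.4 to 24.1 TPM) and the adipocyte list (34235 to 35064 and 32875 to 33850 TPM) had no gene called. The endothelial list summed to 201 to 212 TPM in vehicle and 233 to 325 TPM in weekly tissue, the stromal list to 1259 to 1305 and 1623 to 1940 TPM, and Ptprc measured 16.7 to 18.7 and 21.6 to 35.1 TPM. Tek of the 5 endothelial genes and Col3a1, Dcn and Pdgfra of the 5 stromal genes were called higher. Of all 14150 tested genes 809 (5.72%) were called higher and 243 lower, which became 451 and 682 under TMM scaling. The part of these cells in the protease values was not tested. Melanocytes also use Kit, and their list summed to 1.40 to 3.81 TPM over the 9 adipose libraries and to 0.161 to 0.736 TPM in muscle.

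Within vehicle mice the 4 proteases were lower in muscle than in adipose tissue of the same animals, by 0.80 to 1.00 on the log2 scale, but so were most genes. All 4 were called lower, where 73.9% of the 11737 genes tested in both tissues were called lower and 87% in either direction, and their median of -0.84 lay beside a median of -0.88 over all genes. TMM scaling moved the all-gene median to 0.04 and left none of the 4 called, with 0.19 for Mcpt4, 0.12 for Tpsb2, 0.21 for Cma1 and -0.09 for Cpa3. The direction between tissues therefore depended on the scaling. Mcpt4 was not called without the third library of each group (limma, adjusted p = 0.0556) or without vehicle 1 (0.0518).

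The daily effect was compared between tissues within the mice. The muscle effect minus the adipose effect was -1.07 ± 0.18 for Tpsb2, -0.99 ± 0.30 for Mcpt4, -0.85 ± 0.28 for Cpa3 and -0.72 ± 0.27 for Cma1. All 4 had an unadjusted p under 0.05 (limma, 0.000188 for Tpsb2), as did 13.8% of all tested genes, and none passed after adjustment over all genes (limma, adjusted p = 0.105, 0.218, 0.241 and 0.302), where 0.0511% of all tested genes were called. A difference between tissues in the daily effect was thus not shown by the adjusted test. For the weekly effect the differences ran from -0.33 to -0.76, and the lowest adjusted p was 0.0537 for Tpsb2 (limma), where 2.78% of all tested genes were called.

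The wider mast cell program was read from 6 lists holding 37 further genes. Among other mast cell proteases, Mcpt2, a chymase of mucosal mast cells, was the most abundant, at 14.1, 18.4 and 16.1 TPM in vehicle, 14.0, 15.8 and 14.3 TPM in weekly and 13.0, 10.3 and 10.4 TPM in daily muscle. The daily libraries lay below the others, and 27.8% of all tested genes had daily libraries wholly below vehicle. Mcpt2 fell by 0.49 ± 0.11 under daily prednisone in muscle (limma, adjusted p = 0.0215). Its call was lost in 7 of 16 other settings, among them TMM scaling (0.0523) and the removal of vehicle 2 (0.0684), vehicle 3 (0.0571), daily 2 (0.0591), daily 3 (0.091) or the third library of each group (0.278). It was the 1 gene of 6 in its list above the filter in muscle. In transcripts, Mcpt4 shared 12.2% of its 31-base words with Mcpt2 or 4 other relatives and Cma1 shared 10.7% with a predicted gene, so reads of those could be split between copies.

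Of 4 mast cell transcription factors tested in muscle, 2 fell with daily prednisone and none rose, where 11.8% of all tested genes were called lower. Stat5b, which carries cytokine and KIT signals, measured 57.2, 51.8 and 50.0 TPM in vehicle, 51.4, 47.4 and 47.3 TPM in weekly and 36.3, 37.7 and 34.1 TPM in daily muscle. The last group did not overlap with the others, and 27.8% of all tested genes had daily libraries wholly below vehicle. Stat5b fell by 0.54 ± 0.07 (limma, adjusted p = 0.00285) and weekly exceeded daily by 0.42 ± 0.07 (0.0192). Without the third library of each group both calls were lost (limma, adjusted p = 0.103 and 0.498). The weekly minus daily call was also lost without weekly 1 (0.0714), weekly 3 (0.0665), daily 1 (0.0503) or daily 3 (0.118). Stat5a, its paralog, fell by 0.38 ± 0.07 (limma, adjusted p = 0.0119). It was not called without the third library of each group (0.26) or without daily 3 (0.0624). Gata2 differed by -0.63 ± 0.22 and Mitf by -0.16 ± 0.12 without passing. These factors serve many cell types, and muscle fibres also express Stat5b.

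**Figure D4:**
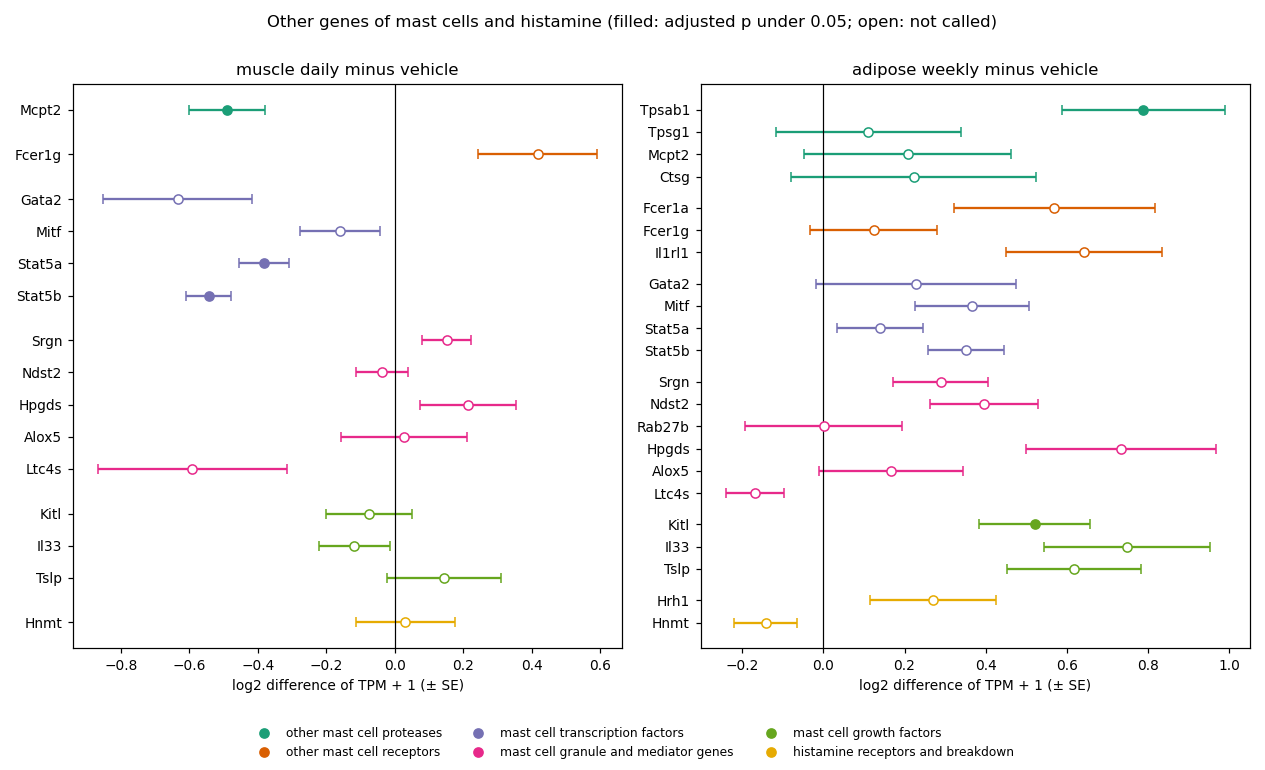
Log2 difference of TPM + 1 (x axis, ± SE) of other mast cell and histamine genes above the filter (y axis), coloured by list, for daily minus vehicle in muscle and weekly minus vehicle in adipose tissue. Filled points passed: Mcpt2, Stat5a and Stat5b below 0 in muscle, and Tpsab1 and Kitl above 0 in adipose tissue.

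In adipose tissue 22 of the 37 genes were tested, and 2 were called higher and none lower under weekly prednisone, where 5.72% of all tested genes were called higher. Tpsab1, the tryptase neighbouring Tpsb2, measured 2.22, 1.34 and 1.25 TPM in vehicle and 4.51, 2.597 and 3.41 TPM in weekly tissue. It rose by 0.79 ± 0.20 (limma, adjusted p = 0.0466). Kitl, the ligand of KIT, measured 11.4, 11.7 and 14.5 TPM in vehicle and 21.1, 16.9 and 17.3 TPM in weekly tissue. It rose by 0.52 ± 0.14 (limma, adjusted p = 0.0483). Both calls were close to the threshold. Tpsab1 lost its call in 9 of 16 other settings, including TMM scaling (0.0572) and the removal of vehicle 2, vehicle 3, weekly 1, weekly 3, daily 1 or daily 3 (up to 0.129), and had 0.351 without the third library of each group. Kitl lost it in 12 of 17, including TMM scaling (0.0644) and the removal of any mouse other than daily 2 (up to 0.135), and had 0.306 without the third library of each group. The growth factors Il33 and Tslp had differences of 0.75 and 0.62 without passing, and Il3 and Il9 were listed at 0 in every library of both tissues. In muscle none of the 3 growth factors tested was called under either regimen.

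Fcer1g, which macrophages also express, measured 10.2 to 26.6 TPM in muscle and its daily difference was 0.42 ± 0.17 (limma, adjusted p = 0.145), opposite in sign to the proteases. Fcer1a, the chain that binds IgE, reached at most 0.437 TPM in muscle and 1.47 TPM in adipose tissue.

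Kit carried 8 annotated transcripts in the table. Retained-intron forms made up 66.9% of its TPM in muscle and 50.8% in adipose tissue. Protein-coding Kit in adipose tissue was 1.86 ± 0.302 TPM in vehicle, 2.88 ± 1.06 TPM in weekly and 1.95 ± 0.673 TPM in daily tissue (SD, n = 3), while the retained-intron forms were 2.81 ± 1.12, 2.53 ± 0.587 and 1.57 ± 0.255 TPM. The mean of the coding forms in daily tissue was thus close to vehicle, and the mean of the retained-intron forms was lower. Vehicle 2, at 1.52 TPM of retained-intron forms, lay inside the daily range of 1.39 to 1.86 TPM. This split was not tested. In muscle the coding forms stayed between 0.0591 and 0.293 TPM. Mcpt4, Tpsb2 and Cma1 each had 1 transcript in the table.

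**Figure D5:**
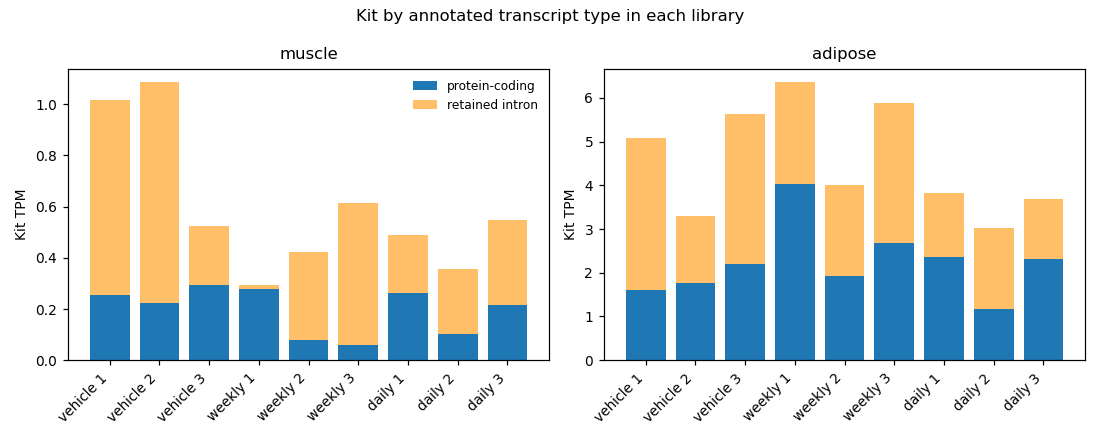
Stacked bars of Kit TPM (y axis, from 0) in each library (x axis) of muscle and adipose tissue, split into protein-coding and retained-intron transcripts. Retained-intron forms are highest in the first and second vehicle libraries of muscle, and the coding form peaks at 4.02 TPM in the first weekly adipose library.

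The 4 proteases varied together across libraries. Over the 9 libraries of a tissue, regimen differences included, their 6 pairs had Pearson r from 0.755 to 0.840 in muscle and from 0.864 to 0.952 in adipose tissue, as a description. The genes most like the mean of the tested mast cell genes in muscle were Slc27a1 (r = 0.984), a fatty acid transporter, Tgm2 (0.982), Ctdsp2 (0.980), Psmc4 (0.980), Map1lc3b (0.975), Uaca (0.975), Hadha (0.971), a mitochondrial fatty acid oxidation enzyme, and Klhl33 (0.971). In adipose tissue they were Ccl21a (0.974), a chemokine of lymphatic vessels and lymph nodes, Cyth4 (0.963), Lrmp (0.962), Lilra6 (0.961), Eps8 (0.956), Cpxm2 (0.953), Cd180 (0.953) and Hhex (0.953). Ccl21a ranged from 3.24 TPM in vehicle 2, the library lowest in all 4 proteases, to 37.3 TPM in weekly 1. The 2 sets of 8 genes had no member in common.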

How the data were processed

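The 18 libraries (3 per regimen and tissue) are stranded mRNA libraries from RNA prepared by Trizol followed by RNeasy, per the labels' protocols. Trimmomatic, HISAT2, kallisto and mm10 are named in the submitters' processing notes, with no roles or versions. The deposited values are TPM per transcript, 105129 transcripts in all, which the authors scaled to 1 fixed sum per library. The series' design text names 2 daily adipose samples, while the labels and the table hold 3, and all 3 were used.

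TPM was summed per symbol and tested as log2(TPM + 1) with limma 3.58.1 in R 4.3.3, with its mean-variance trend, on genes that reached 1 TPM in 3 or more of a tissue's libraries. Each tissue's fit held its 9 libraries (6 residual degrees of freedom). Tissue comparisons used each mouse's muscle minus adipose difference. In those fits the trend ran along a gene's mean tissue difference, not along its expression level, and the effect of this was not tested. P-values were adjusted by Benjamini-Hochberg over all genes of a comparison and called under 0.05. Fold changes on this scale understate changes of low genes. Each p-value sets a difference against the spread between mice of a group, which limma moderates with that of all tested genes. The test was checked on simulated data. Python 3.11.15 and matplotlib 3.10.9 made summaries and figures.

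The 7 genes and all gene lists were chosen with earlier results of these data known. All 7 are named, with genes of the mast cell and histamine lists, the 8 genes per tissue with the highest Pearson r to the mean of the tested members (mean of at least 1 TPM, predicted genes left out) and markers of other cells that moved with a member. Alternatives were TMM scaling, pseudocounts of 0.1 and 5, no filter, a filter at 5 TPM, a replicate block, and fits without certain libraries or each mouse in turn. One further gene was taken out of these lists and is not analysed here, and most genes of the lists enter the text only through counts. Settings for the other mast cell genes were added after seeing the data.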

Additional observations from a re-analysis of the deposited data

Results flagged for a closer look

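Tslp, an epithelial and stromal cytokine that acts on mast cells, differed between tissues in its weekly effect. It measured 1.37, 1.29 and 1.07 TPM in vehicle and 1.33, 1.03 and 1.15 TPM in weekly muscle, where the groups overlapped. In adipose tissue it measured 2.78, 2.29 and 2.08 TPM in vehicle and 4.94, 4.14 and 3.53 TPM in weekly mice. The muscle effect minus the adipose effect was -0.66 ± 0.13 (limma, adjusted p = 0.0397). The call was lost in 14 of 16 other settings, among them TMM scaling (adjusted p = 0.196), the removal of the third library of each group (0.271) and the removal of each mouse other than daily 2 (up to 0.099).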

How the results depend on the processing

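The count of mast cell genes called in muscle for daily minus vehicle was 3, dropped to 0 when the third library was left out of every group, and ranged from 2 to 4 when each mouse was left out. For muscle weekly minus daily it went from 2 to 1 with a pseudocount of 5, to 0 with no filter, to 0 without the third libraries, to 1 with a replicate block, and ranged from 0 to 1 over the mice left out. For adipose weekly minus vehicle it went from 0 to 1 with a replicate block (Tpsb2, limma adjusted p = 0.0241) and ranged from 0 to 1 over the mice left out. For the tissue difference of the weekly effect it became 1 with a pseudocount of 5 and 1 with the filter at 5 TPM, and for the daily effect 1 with that filter, Tpsb2 each time (0.0494 for the daily effect). For vehicle muscle minus adipose it went from 4 to 0 under TMM scaling and ranged from 3 to 4 over the mice left out. Over all tested genes, residuals of same-numbered libraries from different groups had a median correlation of -0.03 in muscle (-0.12 to 0.11). In adipose tissue it was 0.03 (-0.06 to 0.19). However, adipose library 2 was the lowest of its group in all 3 regimens for Mcpt4, Tpsb2, Cma1 and Cpa3. The block is only a shared number, and whether it marks anything these mice had in common was not tested. The cause of these changes was not tested.

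Of the 693 single-gene values of the members recomputed, 640 kept direction and side of the threshold and 15 changed sign. With the direction kept, 31 lost the call and 7 gained it. Most of the 693 belong to differences not called in the first place, which had no call to lose. Removing the filter, or a mouse of a regimen outside the comparison, cannot move the difference itself. The 640 are therefore no measure of how stable the calls were. Those 15 were, under TMM scaling, Mcpt4 (0.0166) in muscle weekly minus vehicle, Hdc (-0.0514) in adipose weekly minus vehicle, Cma1 (-0.10) and Cpa3 (-0.0128) in adipose weekly minus daily, and Mcpt4 (0.19), Tpsb2 (0.12) and Cma1 (0.21) between tissues. With a mouse left out they were Mcpt4 in muscle weekly minus vehicle (0.0278 without vehicle 2 and 0.0453 without weekly 1, in a range from -0.15), Cma1 there (-0.0815 without vehicle 1, up to 0.156), Kit (-0.0056 without vehicle 2, up to 0.352) and Hdc (-0.0226 without weekly 2, up to 0.0829) in adipose weekly minus vehicle, and Cma1 (-0.0152 without weekly 1, -0.0695 without daily 2, up to 0.0995) and Cpa3 (-0.0051 without daily 2, up to 0.258) in adipose weekly minus daily.

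Counts over all genes moved more. In muscle, daily minus vehicle went from 1674 to 769 under TMM scaling (234 higher and 1440 lower became 348 and 421), to 7 without the third libraries and to 506 to 1647 without each mouse; weekly minus daily went from 217 (112 higher, 105 lower) to 216 under TMM scaling (80 and 136), 100 with the block, 9 without the third libraries and 32 to 249 without each mouse; weekly minus vehicle from 6 to between 0 and 11. In adipose tissue, weekly minus vehicle went from 1052 to 291 with no filter, 2205 without the libraries with muscle transcripts, 1 without the third libraries and 65 to 1526 without each mouse, and its 809 higher and 243 lower became 451 and 682 under TMM scaling. Weekly minus daily went from 44 to between 0 and 72, and daily minus vehicle from 1 to between 0 and 14. Between tissues the vehicle count went from 10209 to 6558 with the filter at 5 TPM, its 1533 higher and 8676 lower became 4682 and 4307 under TMM scaling, the weekly effect went from 326 to between 0 and 657, and the daily effect from 6 to between 0 and 24. TPM gives no depth, so a low gene such as Ms4a2 or Hdc cannot be given a counting error.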

Other observations

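In adipose tissue Hpgds, the prostaglandin D synthase of mast cells and some macrophages, measured 13.8, 7.40 and 9.89 TPM in vehicle and 21.4, 12.4 and 19.7 TPM in weekly tissue, with a difference of 0.73 ± 0.23 that did not pass (limma, adjusted p = 0.076). Il1rl1, the receptor of interleukin 33, measured 2.59, 2.09 and 2.31 TPM in vehicle and 5.04, 3.91 and 3.71 TPM in weekly adipose tissue. Its difference of 0.64 ± 0.19 did not pass either (limma, adjusted p = 0.0665). In muscle none of the 5 tested granule and mediator genes was called under either regimen. Hnmt, which inactivates histamine, was the 1 gene of 6 histamine receptors and breakdown enzymes above the filter in muscle, and it was not called there under either regimen.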
